A study of Mus musculus with 16 samples.

Results

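The genes described here run mitosis: the kinases and cyclins that start and end it, the checkpoint and kinetochore proteins, the anaphase machinery, the spindle motors and microtubule-binding proteins, the chromosome-structure proteins and the cytokinesis proteins. A list of 45 such genes was used. A gene was measured where a probe set (a group of short probes for one transcript) carried its symbol alone, and where several did, the one with the highest average level in the 16 mice stood for the gene. By this rule 43 of the 45 were measured among 12394 genes in all, and Cdca8 and Espl1 were not measured.

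The RNA came from tumour-associated macrophages, sorted as CD11b+ and Gr1- cells from gliomas of 16 mice, with 1 Affymetrix 3' expression array per mouse. All mice, controls included, were Nestin-Tv-a;Ink4a/Arf-/- animals of mixed background, and each tumour was started by intracranial injection of DF-1:RCAS-PDGF-B-HA cells, chicken fibroblasts that release the virus. Tv-a is the avian receptor that lets the RCAS retrovirus enter a cell, and the Nestin promoter restricts it to Nestin-expressing cells, so PDGF-B drives tumour growth from those cells. The Ink4a/Arf deletion removes a pair of brakes on cell division from every cell of these mice, the sorted macrophages included. The 8 mice of the BLZ945 group received BLZ945, which blocks the kinase of the CSF-1 receptor, and the 8 mice of the Vehicle group received 20% captisol, both by gavage once per day for 7 days, with BLZ945 at a labelled 200 mg and no body weight stated. The Vehicle group held 4 females and 4 males of 11.29 weeks (4 mice), 11.43 weeks (2 mice) or 12.29 weeks (2 mice). The BLZ945 group held 5 females and 3 males of 11.29 weeks (4 mice) or 13.14 weeks (4 mice). The labelled initial tumour volume, given without a unit, was 11.9 to 27.3 in 6 Vehicle mice and 41.3 to 132.3 in 8 BLZ945 mice, with no overlap, although the protocol assigned mice at random at 4.5 to 40 mm3.

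Cells enter mitosis when cyclin-bound Cdk1 is switched on. Chromosomes are then compacted by condensin, captured by kinetochores and aligned on a spindle built by motor proteins, while the spindle checkpoint holds back the anaphase-promoting complex until every chromosome is attached. Genes of this programme are transcribed together late in the cell cycle, largely through the MuvB complex with B-Myb and FoxM1, which acts at short promoter elements called cell cycle genes homology regions (CHR), and through NF-Y, which binds CCAAT boxes. CSF-1 is a mitogen and a survival factor for macrophages, and macrophages and microglia in gliomas are known to divide.

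Values are log2 expression per mouse, and a difference is BLZ945 minus Vehicle in log2 units, so that a difference of -1 is a 2-fold lower level. Of the 43 measured genes, 40 were lower in BLZ945 and 0 were higher at an adjusted p under 0.05 in limma, against a background of 5.34% of all 12394 genes called lower, 2.6% called higher and 7.94% called in either direction. The called falls ran from 1.74-fold for Incenp to 7.18-fold for Mki67. The median difference of the 43 genes was -1.47, a 2.77-fold lower level, while the median over all genes was 0.07. At least a 2-fold fall was called for 34 members, against 1.76% of all genes, and at least a 4-fold fall for 8, against 0.307%. Standard errors ran from 0.15 to 0.52 and limma's adjusted p of the called genes from 0.000499 to 0.035. The 3 members that did not pass were Cks2, Cenpa and Foxm1. In RNA from a sorted population, fewer dividing cells and less transcript per dividing cell cannot be told apart.

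The groups did not overlap for 1 member, Ncaph, against a background of 1.04% of all genes whose BLZ945 mice all lay below all Vehicle mice. For 24 members, 7 of the 8 BLZ945 mice lay below every Vehicle mouse. The share of all genes with that lesser separation was not computed, so such counts per gene are descriptions. The mouse labelled BLZ945 replicate 1 had the highest value of its group for 37 of the 43 genes, and BLZ945 replicate 6 had it for 4. The heat map of single mice shows this column of values near the Vehicle level.

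**Figure D1:**
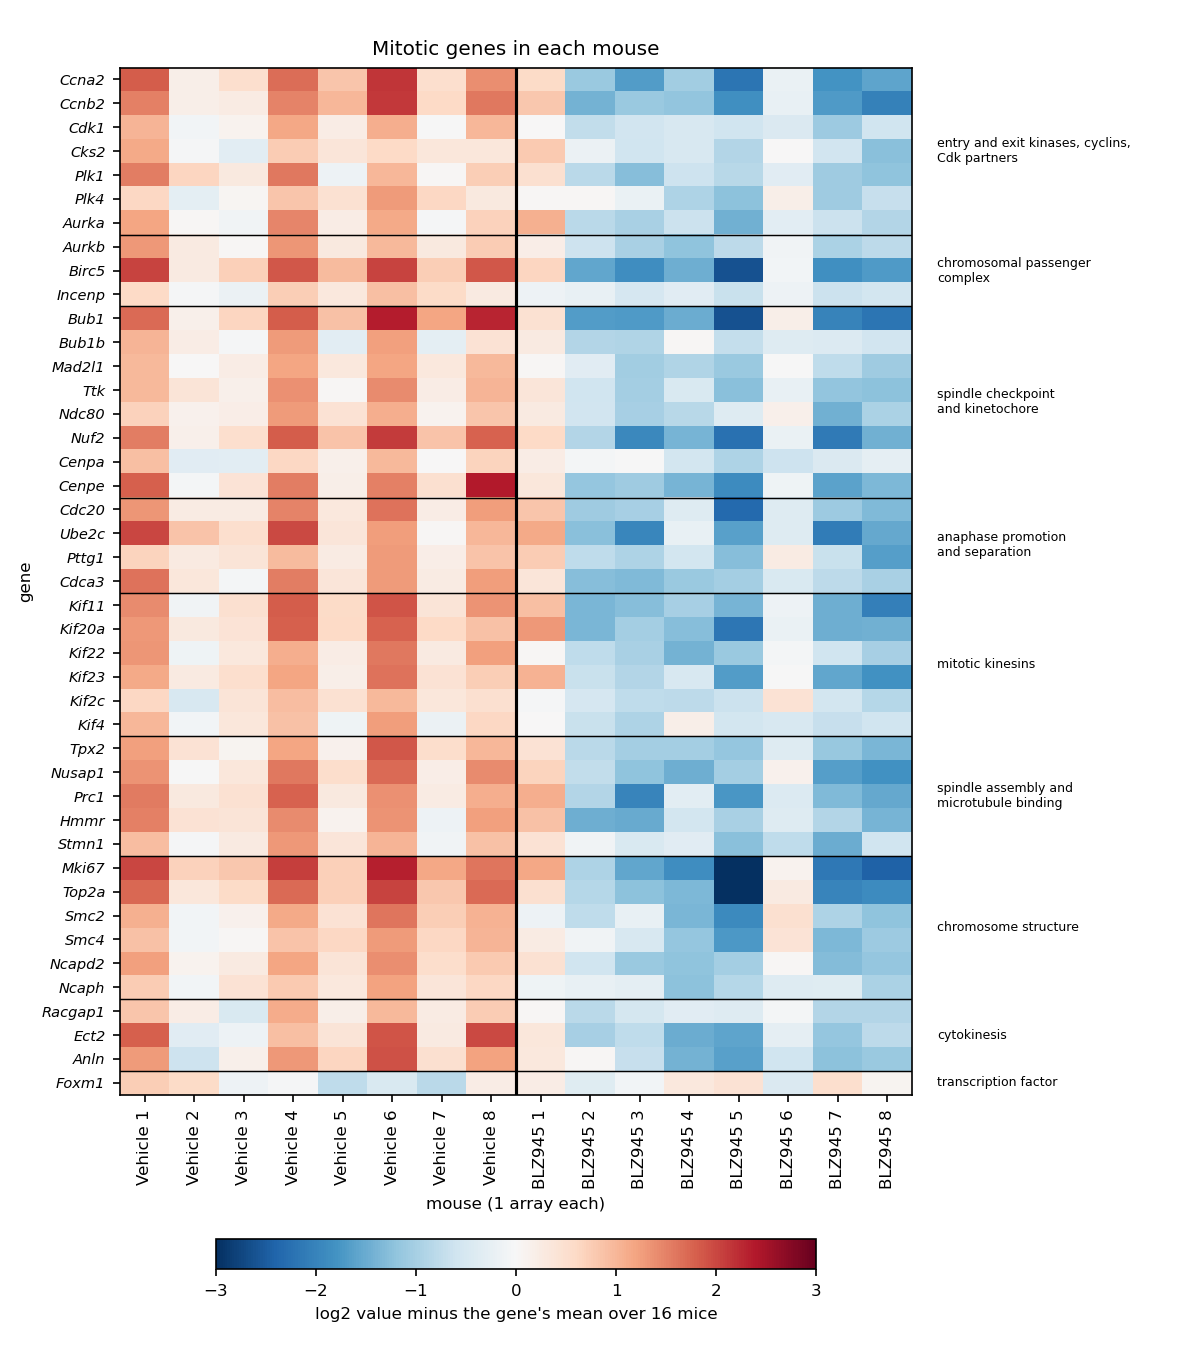
Heat map of the 43 mitotic genes (rows, by role) in each of 16 mice (columns, 1 array each). Colour is the log2 value minus that gene's mean over all mice, from -3 (blue) to 3 (red), with values beyond -3 drawn as -3. Vehicle mice are mostly red and BLZ945 mice mostly blue, BLZ945 replicates 1 and 6 are the palest or reddest of their group, and the bottom row, Foxm1, has no such split.

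Because the members fell together, their promoters were read in the RefSeq table (build GRCm38.p6, 250 bases before to 50 bases after an annotated start). Of the 45 listed genes, 37 had a window there, 39 windows in all. These 37 include Cdca8 and Espl1, which were not measured, and Cenpa and Cks2, which did not pass. The searched words were the CHR hexamer TTTGAA with its variant form TTCGAA, the NF-Y pentamer CCAAT, and 4 heptamers of the E2F type. The first heptamer was TTTCCCG, the second of them was TTTCGCG, then followed the form TTTGCCG and last came the form TTTGGCG. Each word was searched on both strands and counted on its own, whether or not matches overlapped. TTCGAA reads the same on both strands. TTTGAA was found for 27 of the 37 members (73.0%), against 17.9% of 32851 windows of the same length and 15.4% of the 9888 tested genes with a window. TTCGAA was found for 3 members, against 1.56% of all windows and 2.26% of tested genes. Either hexamer was present for 28 members (75.7%), against 19.2% of all windows and 17.3% of tested genes. CCAAT was found for 27 members (73.0%), against 37.4% of windows and 42.3% of tested genes. A hexamer and CCAAT occurred together for 25 members (67.6%), against 7.52% of windows and 6.88% of tested genes. The E2F-type heptamers were found for 6 members (16.2%), against 6.70% of windows, 11.3% of tested genes and 18.5% of tested genes called lower. Of the 33 members called lower that had a window, 24 held TTTGAA, 25 either hexamer and 22 a hexamer together with CCAAT. A match describes letters only, and these shares carry no test.

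The stretches below run from 100 bases before to 20 bases after the annotated start, 5′ to 3′ on the gene's strand. The first 4 belong to the members with a hexamer in the window and the smallest p between agents. Cdk1 and Cdc20 are shown as the kinase and the anaphase activator at the centre of mitosis, and Birc5 as the member with the smallest p that had no hexamer. These 3 were chosen after their values were seen. Capitals mark a hexamer, CCAAT on either strand, or an E2F-type heptamer.
Bub1 (chr2:127831840-127831959, minus strand): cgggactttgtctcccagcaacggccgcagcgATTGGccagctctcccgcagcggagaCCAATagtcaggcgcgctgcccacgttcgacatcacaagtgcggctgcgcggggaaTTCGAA
Cdca3 (chr6:124830076-124830195, plus strand): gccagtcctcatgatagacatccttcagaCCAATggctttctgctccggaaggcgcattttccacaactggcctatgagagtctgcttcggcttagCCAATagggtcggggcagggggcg
Ccnb2 (chr9:70421535-70421654, minus strand): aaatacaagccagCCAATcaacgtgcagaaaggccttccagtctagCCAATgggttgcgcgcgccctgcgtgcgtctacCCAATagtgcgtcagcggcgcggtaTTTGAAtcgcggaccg
Top2a (chr11:99024170-99024289, minus strand): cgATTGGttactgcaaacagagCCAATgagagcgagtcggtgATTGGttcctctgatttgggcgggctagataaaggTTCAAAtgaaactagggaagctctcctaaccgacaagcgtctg
Cdk1 (chr10:69352893-69353012, minus strand): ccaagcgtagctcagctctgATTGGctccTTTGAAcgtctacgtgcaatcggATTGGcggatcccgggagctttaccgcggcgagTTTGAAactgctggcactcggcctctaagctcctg
Cdc20 (chr4:118437324-118437443, minus strand): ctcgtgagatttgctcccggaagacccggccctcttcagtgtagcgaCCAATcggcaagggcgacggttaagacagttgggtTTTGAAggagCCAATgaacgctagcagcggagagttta
Birc5 (chr11:117849137-117849256, plus strand): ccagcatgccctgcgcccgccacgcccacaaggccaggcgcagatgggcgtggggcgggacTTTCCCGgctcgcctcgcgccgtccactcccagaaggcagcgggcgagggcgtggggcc

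In Ccnb2 the 3 CCAAT words start 87, 54 and 21 bases before the start site and the hexamer starts at base 5 after it. In Bub1 the hexamer starts at base 15 after the start site. The hexamer of Cdca3 lies beyond the printed stretch and starts at base 31. In Top2a the printed hexamer lies on the opposite strand, 23 bases before the start site. For Cdca3 the window's start site is 124830176, while the RefSeq gene entry starts at 124829530. For Top2a these positions are 99024189 and 99024199. Distances here are from the window's start site. Cdk1 has hexamers starting 71 and 15 bases before the start site, and Cdc20 has 1 starting 18 bases before it. The member windows held 39 distinct hexamers, 28 of them on the gene's strand and 26 starting within 50 bases of a start site, where a place covered by overlapping windows of Ect2 or Prc1 is counted once. A hexamer in that narrower stretch was present for 25 of the 37 members (67.6%), against 5.31% of all windows and 4.53% of tested genes, a distance chosen after the positions were seen. No hexamer was in the windows of Birc5, Nuf2, Nusap1, Ncaph, Plk4, Cenpe, Mad2l1, Pttg1 and Cks2. These 9 include 7 called lower by more than 2-fold, so the fall was not limited to genes with the word in this window.

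**Figure D2:**
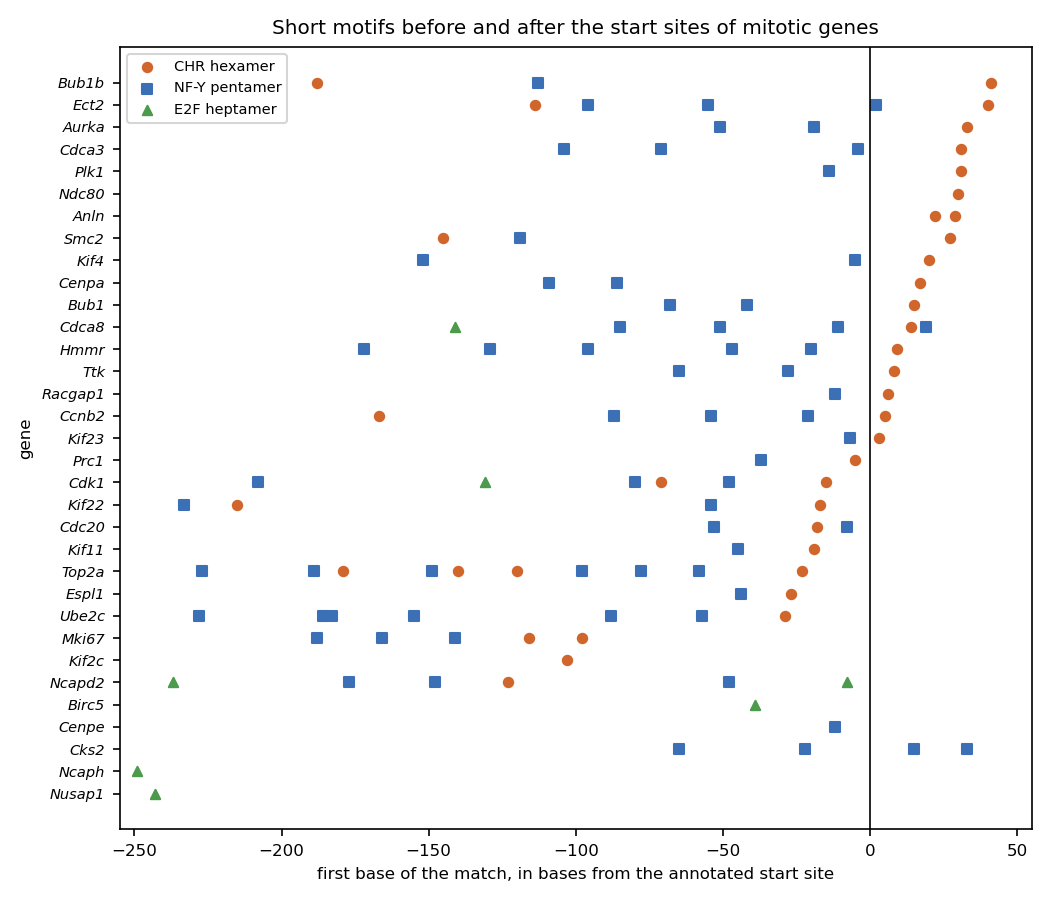
Positions of the searched words around the start site (0 on the horizontal axis, in bases) for each member with at least 1 match, using the first listed start site of a gene. Circles are CHR hexamers, squares are the NF-Y pentamer and triangles are E2F-type heptamers. Most circles lie within 50 bases of the start, and squares lie mostly before it.

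Among the kinases, cyclins and Cdk partners that start and end mitosis, 6 of 7 were lower, with a median difference of -1.16. Ccna2 encodes cyclin A2, the partner of Cdk1 and Cdk2 from S phase to mitosis. Its level was 7.27, 8.20 and 9.24 (lowest, median, highest) in Vehicle and 4.90, 5.75 and 7.66 in BLZ945. All BLZ945 mice but 1 lay below every Vehicle mouse, and the difference was -2.26 ± 0.36 (SE, n = 8 each, limma adjusted p = 0.000748). Ccnb2, a B-type cyclin that activates Cdk1, fell by 2.18, and Cdk1 itself, the kinase that starts mitosis, fell by 1.13. Polo-like kinase Plk1 fell by 1.42. The centrosome kinase Aurka fell by 1.16, and the centriole duplication kinase Plk4 fell by 0.96. Aurka rested on single arrays: it missed the threshold without any one of Vehicle replicates 1, 4 and 6 or BLZ945 replicate 5, with limma's adjusted p up to 0.0538. Cks2, a small Cdk-binding subunit, was 8.01, 8.68 and 9.46 in Vehicle and 7.08, 7.79 and 9.11 in BLZ945. Only 5 BLZ945 mice lay below every Vehicle mouse for Cks2, and its difference of -0.79 ± 0.24 did not pass (limma adjusted p = 0.0528).

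All 3 measured members of the chromosomal passenger complex, which corrects wrong attachments and later guides cytokinesis, were lower, with a median difference of -1.32. Birc5 encodes survivin, the subunit that brings the complex to centromeres, and it had the smallest p of all members. Its level was 7.08, 8.21 and 8.83 in Vehicle and 4.19, 5.17 and 7.45 in BLZ945. The medians lie far apart, and Birc5 differed by -2.62 ± 0.40 (SE, n = 8 each, limma adjusted p = 0.000499). In 7 of 8 BLZ945 mice Birc5 was below every Vehicle mouse. Aurkb, the kinase of the complex, fell by 1.32. Incenp, its scaffold, was 8.06, 8.68 and 9.13 in Vehicle and 7.57, 7.81 and 8.09 in BLZ945. The Incenp groups met at their edges, and its fall of 0.80 was the smallest called one and also had the smallest standard error, 0.15 (limma adjusted p = 0.00247).

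Of the spindle checkpoint and kinetochore genes, 7 of 8 were lower, with a median difference of -1.34. Bub1, a checkpoint kinase at the kinetochore, was 6.03, 7.31 and 8.23 in Vehicle and 3.27, 4.19 and 6.32 in BLZ945. That is a difference of -2.75 ± 0.42 (SE, n = 8 each, limma adjusted p = 0.000526), with 6 BLZ945 mice below every Vehicle mouse. Nuf2, a subunit of the Ndc80 complex that holds microtubules, was 6.27, 7.33 and 8.23 in Vehicle and 3.90, 4.71 and 6.73 in BLZ945. For Nuf2, 7 of 8 BLZ945 mice lay below every Vehicle mouse, and the difference was -2.40 ± 0.38 (limma adjusted p = 0.000675). Ndc80, which binds Nuf2 directly, fell by 1.19. Cenpe, the kinetochore kinesin that moves chromosomes to the spindle equator, fell by 2.07, the checkpoint kinase Ttk by 1.39 and the anaphase inhibitor Mad2l1 by 1.29. Bub1b, which encodes the checkpoint protein BubR1, fell by 0.89 (limma adjusted p = 0.035). That call ended without any one of Vehicle replicates 1, 4, 6 and 8 or BLZ945 replicates 2, 3, 5, 7 and 8, with adjusted p up to 0.0745. Cenpa, the histone variant that marks centromeres, was 7.04, 7.77 and 8.36 in Vehicle and 6.47, 7.03 and 7.62 in BLZ945. The Cenpa groups overlapped, with 4 BLZ945 mice below every Vehicle mouse, and its difference of -0.66 ± 0.21 did not pass (limma adjusted p = 0.0595).

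All 4 measured genes listed under anaphase promotion and separation were lower, with a median difference of -1.66. Ube2c, the ubiquitin-conjugating enzyme of the anaphase-promoting complex, was 6.50, 7.40 and 8.47 in Vehicle and 4.38, 5.07 and 7.61 in BLZ945. Its BLZ945 maximum came from a single mouse, the other 7 lay below every Vehicle mouse, and the difference was -1.99 ± 0.41 (SE, n = 8 each, limma adjusted p = 0.00491). Cdc20, which activates the complex at anaphase, fell by 1.68. Cdca3, an adapter for degradation of the Cdk1 inhibitor kinase Wee1, fell by 1.65. Pttg1 encodes securin, the inhibitor of separase, and was 9.34, 9.67 and 10.42 in Vehicle and 7.49, 8.44 and 9.92 in BLZ945. Pttg1 fell by 1.20, with 6 of 8 BLZ945 mice below every Vehicle mouse (limma adjusted p = 0.011).

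The 6 mitotic kinesins, motor proteins that walk on or take apart microtubules, were all lower, with a median difference of -1.49. Kif11, which pushes the spindle poles apart, was 4.71, 5.78 and 6.70 in Vehicle and 2.78, 3.49 and 5.73 in BLZ945. In 7 of 8 BLZ945 mice Kif11 was below every Vehicle mouse, and the difference was -1.95 ± 0.37 (SE, n = 8 each, limma adjusted p = 0.00264). Kif20a and Kif23, both motors of the central spindle, fell by 1.91 and 1.52. The chromosome-arm motors Kif22 and Kif4 fell by 1.47 and 0.93. Kif2c, which takes microtubules apart at kinetochores, was 7.06, 8.01 and 8.51 in Vehicle and 6.68, 6.93 and 7.96 in BLZ945. It fell by 0.92, with 6 BLZ945 mice below every Vehicle mouse (limma adjusted p = 0.00895).

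All 5 genes of spindle assembly and microtubule binding were lower, with a median difference of -1.62. Prc1, which bundles the microtubules of the central spindle, was 6.96, 7.49 and 8.47 in Vehicle and 4.73, 5.60 and 7.80 in BLZ945. The difference was -1.78 ± 0.37 (SE, n = 8 each, limma adjusted p = 0.00551), and 7 BLZ945 mice lay below every Vehicle mouse. Tpx2, the activator of Aurora A on the spindle, was 5.69, 6.38 and 7.48 in Vehicle and 4.25, 4.60 and 6.05 in BLZ945. Here too 7 of 8 BLZ945 mice lay below every Vehicle mouse, and Tpx2 fell by 1.62 (limma adjusted p = 0.00103). Nusap1, a microtubule-stabilising protein, fell by 1.77, and Hmmr, a spindle-pole protein, by 1.57. Stmn1, which destabilises microtubules and is also expressed in cells that do not divide, was 9.68, 10.41 and 11.09 in Vehicle and 8.30, 9.25 and 10.22 in BLZ945, a fall of 1.15.

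All 6 genes of chromosome structure were lower, with a median difference of -1.50. Mki67, the proliferation marker that coats mitotic chromosomes, had the largest difference of all members. Its level was 8.57, 9.27 and 10.21 in Vehicle and 4.14, 6.18 and 9.04 in BLZ945. The BLZ945 mice were spread widely, 7 of the 8 lay below every Vehicle mouse, and the difference was -2.84 ± 0.52 (SE, n = 8 each, limma adjusted p = 0.00181). Top2a, the enzyme that untangles sister DNA, fell by 2.40. Of the condensin genes, Smc2 fell by 1.52, Ncapd2 by 1.47 and Smc4 by 1.31. Ncaph, the subunit that links the condensin ring, was 7.60, 8.20 and 8.90 in Vehicle and 6.45, 7.32 and 7.56 in BLZ945. Its groups did not overlap, although its fall of 1.10 was the smallest of these 6 (limma adjusted p = 0.0011).

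The 3 cytokinesis genes were lower, with a median difference of -1.58. Ect2, the exchange factor that activates RhoA at the cleavage site, was 5.00, 5.98 and 7.32 in Vehicle and 3.76, 4.45 and 5.68 in BLZ945. In 6 BLZ945 mice Ect2 was below every Vehicle mouse, and the difference was -1.67 ± 0.36 (SE, n = 8 each, limma adjusted p = 0.00653). Anln, the scaffold of the contractile ring, fell by 1.58. Racgap1, which pairs with Kif23 in the central spindle, was 5.35, 6.32 and 6.94 in Vehicle and 4.93, 5.36 and 5.85 in BLZ945. It fell by 0.97, with 4 BLZ945 mice below every Vehicle mouse (limma adjusted p = 0.00718).

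Foxm1, a transcription factor of this programme, was the one measured member whose difference was above 0. Its level was 5.65, 6.38 and 7.20 in Vehicle and 6.03, 6.61 and 6.96 in BLZ945. The groups overlapped over most of their range, and the difference was 0.17 ± 0.22 (SE, n = 8 each, limma adjusted p = 0.652). None of its 4 probe sets was called when each was fitted on its own, with differences of 0.17, -0.03, -0.46 and 0.07. The sign of the Foxm1 difference turned when the mean of its probe sets was used (-0.06) and with the SD of each array's values as a covariate (-0.14).

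**Figure D3:**
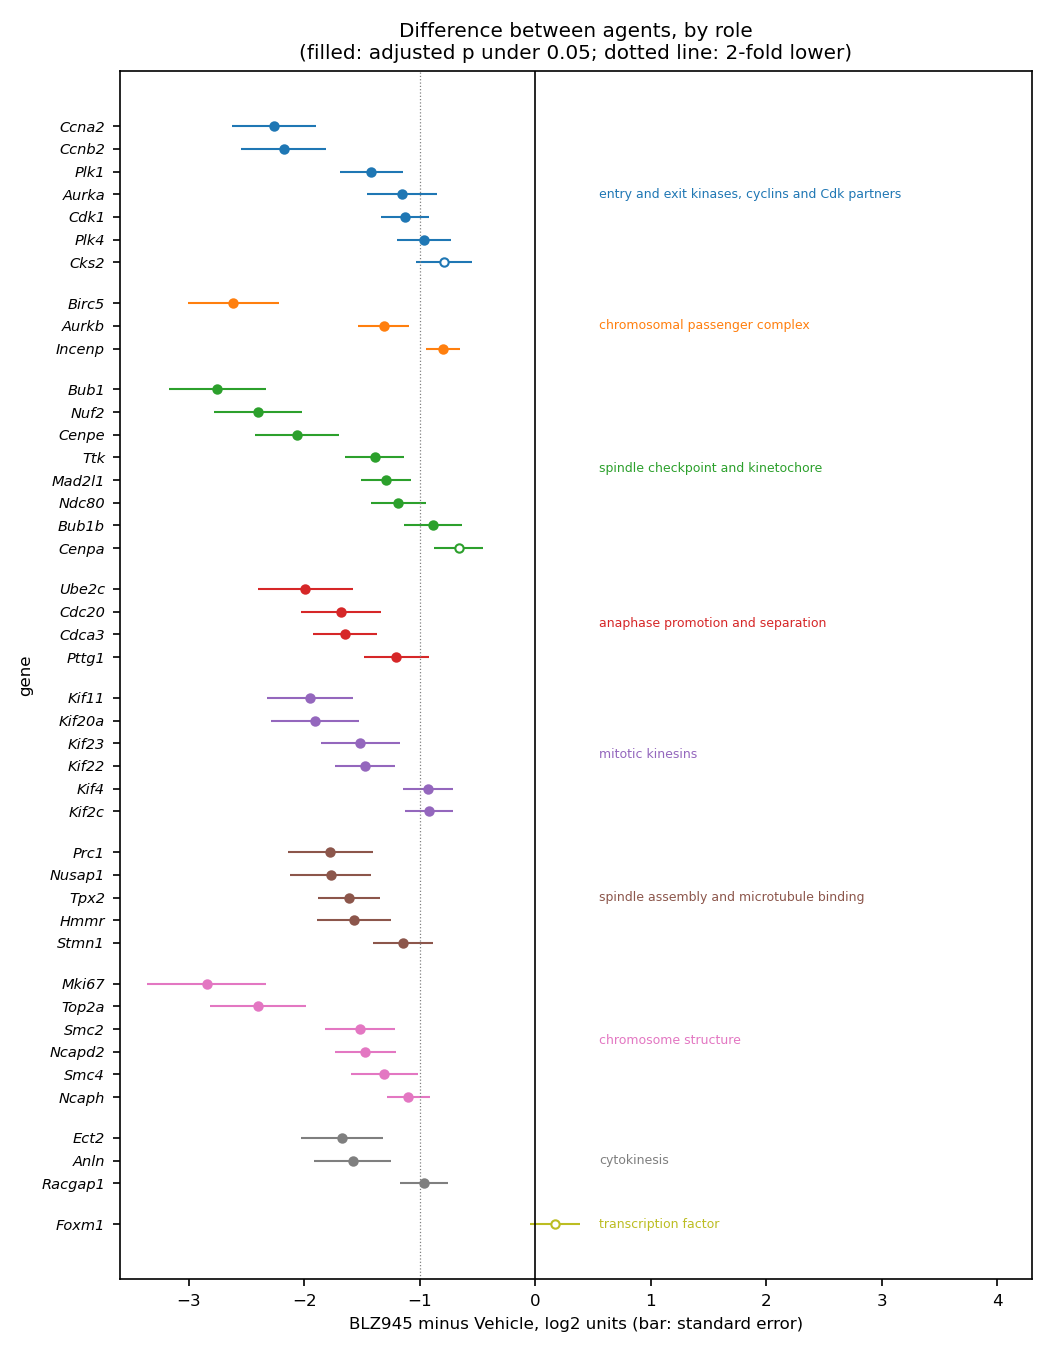
Difference between BLZ945 and Vehicle for each of the 43 genes, in log2 units, grouped by role. Points are limma estimates from 8 mice per group, bars are standard errors, filled points passed an adjusted p of 0.05, and the dotted line marks a 2-fold lower level. The open points are Cks2, Cenpa and Foxm1.

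Of the 81 single-symbol probe sets of the members, 38 were not the one used, spread over 23 genes. Fitted separately with every probe set of the array, 59 of the 81 were lower, against 4.67% of all 20393 probe sets, a fit added after the data were seen. Of the 38 others, 19 were lower, 0 were higher and 19 did not pass. The 10 with a difference above 0 had mean levels of 2.36 to 5.54, and the largest of these differences was 0.34. Probe sets marked _s_, _x_ or _a_ can bind transcripts of several genes or variants. Without them 34 members were left, of which 28 were lower, against 4.97% of genes. Pttg1, Cdca3 and Top2a were then read by dimmer probe sets, with mean levels of 5.36, 2.74 and 3.41 and differences of 0.27, 0.22 and 0.24 that did not pass, against mean levels of 9.15, 6.38 and 7.63 for those used above.

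Of 130 further measured genes, listed by function and including 15 cell cycle brakes, 37 were lower and 3 were higher. Without the brakes, 35 of 115 were lower and 1 was higher. Over all genes, 5.34% were called lower and 2.6% higher, the background for each list below. The difference in share between these lists and the members was not tested. In the list of mitotic entry control, 6 of 14 were lower and 0 higher. Pbk, a mitotic kinase, fell from a Vehicle median of 9.08 to 6.16 (difference -2.49) and Melk, a kinase of dividing cells, from 5.59 to 3.73 (difference -1.77), neither with overlap between groups. Of 25 further kinetochore and centromere genes 9 were lower and 0 higher. Zwilch, of the complex that brings checkpoint proteins to kinetochores, fell by 2.11, and Cenpk, of the inner kinetochore, fell by 1.29. Of 31 further spindle and cytokinesis genes 13 were lower and 0 higher. They include Shcbp1, a central spindle protein, which fell by 2.24, and Tubg1, the gamma-tubulin that starts microtubules, which fell by 0.78.

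Of 15 subunits and regulators listed with the anaphase-promoting complex, which Cdc20 and Ube2c serve, limma called 0 lower and 1, Anapc15, higher by 0.77. At an unadjusted p under 0.05, 4 of the 15 were lower and 2 higher, against 22.6% of all genes in either direction, and with eBayes trend and robust settings 1 was called lower. Anapc15 was 7.23, 7.74 and 7.93 in Vehicle and 7.83, 8.46 and 8.82 in BLZ945, with 7 BLZ945 mice above every Vehicle mouse. Anapc15 helps the complex turn over the checkpoint inhibitor. Of 13 cohesin and further condensin genes 3 were lower, among them the condensin II subunit Ncapg2 (-1.56) and Cdca5 (-1.24), which encodes sororin, the protector of cohesin. Of 17 E2F, MuvB and NF-Y factors 4 were lower and 0 higher, among them E2f8, an E2F repressor, which fell by 1.44, and the E2F partner Tfdp1, which fell by 0.79. The list median was -0.07. Of 15 cell cycle brakes 2 were lower and 2 higher. The Cdk inhibitors Cdkn2c and Cdkn2d fell by 0.71 and 0.53, while the stress-induced Gadd45a rose by 1.26 and the antiproliferative Btg1 rose by 0.45. Cdkn2a, the locus that the genotype deletes, was at 2.84 to 3.38 in Vehicle and 2.92 to 3.66 in BLZ945, near the lowest values of the arrays, and did not differ beyond the spread (0.19, limma adjusted p = 0.342). Where its probe set lies relative to the deletion is not given in the sources used here.

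**Figure D4:**
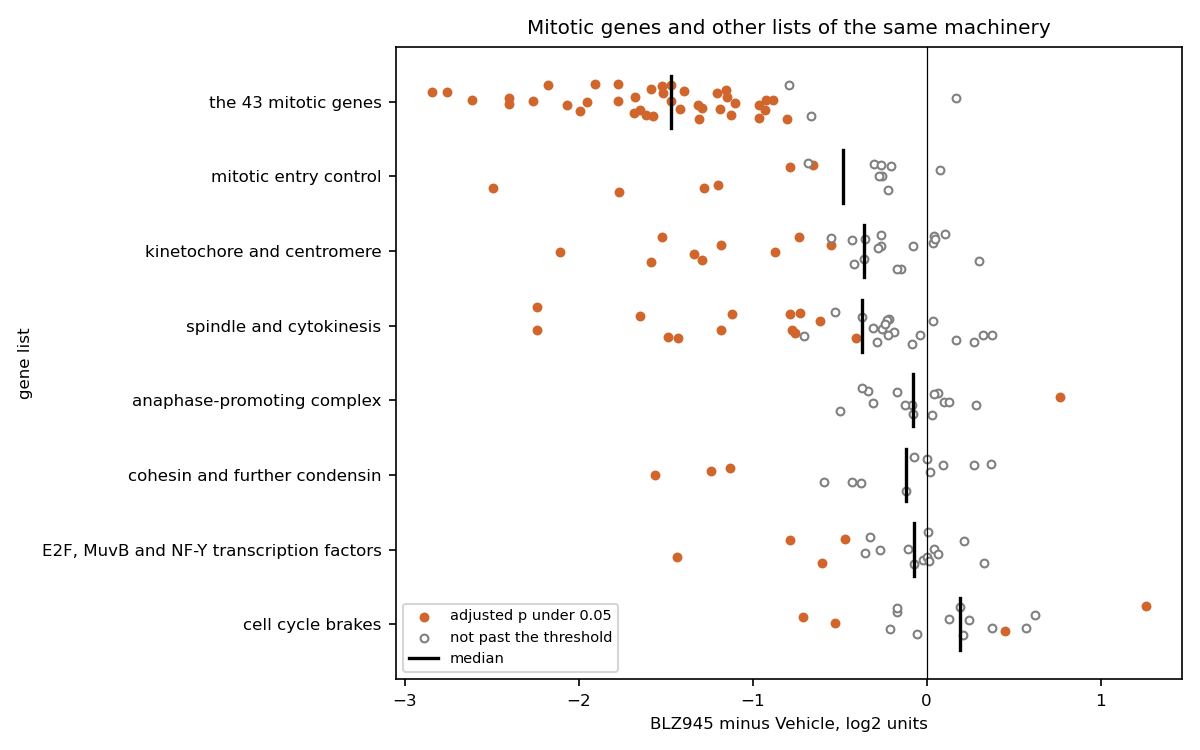
Differences between BLZ945 and Vehicle (log2 units) for the 43 mitotic genes and for 7 lists of further genes, the cell cycle brakes included. Each point is a gene, filled points passed an adjusted p of 0.05 in limma, and vertical bars are list medians. The members lie left of the other lists, whose medians run from -0.48 for mitotic entry control to 0.19 for the brakes.

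A hexamer was in the promoter window of 17 of 29 genes from these lists that were called lower and of 21 of 76 that were not called. Within 50 bases of the start site the counts were 16 of 29 and 8 of 76. Over all tested genes with a window, 141 of 540 called lower (26.1%) and 34 of 253 called higher (13.4%) had a hexamer, against 17.3% of tested genes. The 540 include the 29 list genes above and the 33 members called lower, 25 of them with a hexamer. The share among the remaining genes called lower was not computed. The lists were chosen for mitotic or cell cycle function with results of these data known, so these counts are descriptions.

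Within each group, a few mice were highest for most members. The mean level of the 43 genes per mouse was 7.83, 6.70, 6.81, 7.88, 6.94, 8.00, 6.91 and 7.64 in Vehicle replicates 1 to 8. It was 7.04, 5.82, 5.59, 5.72, 5.20, 6.43, 5.43 and 5.38 in BLZ945 replicates 1 to 8. BLZ945 replicate 1 was therefore inside the Vehicle range and the other 7 BLZ945 mice were below it. Among the Vehicle mice, replicate 6 was highest for 26 genes, replicate 4 for 10, replicate 1 for 5 and replicate 8 for 2. These 4 mice were in the upper 4 of the group for 43 (replicate 1), 43 (replicate 4), 42 (replicate 6) and 40 (replicate 8) of the 43 genes. Vehicle replicate 2 was lowest of its group for 23 genes and BLZ945 replicate 5 for 19. Without BLZ945 replicate 1, limma called 42 members lower and the median difference was -1.61.

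The macrophage and microglia markers, taken as a list, did not fall with the mitotic genes. The mean of 10 such markers was 11.52 to 11.99 in Vehicle and 11.29 to 11.89 in BLZ945. Csf1r, the target of the drug, differed by 0.06 ± 0.09 and Tyrobp, a myeloid signalling adapter, by 0.15 ± 0.09, and neither passed. Itgam, which encodes the CD11b used in the sort, fell by 1.17 (limma adjusted p = 0.00807) and was the 1 of 10 that was called. The 10 differences ran from -1.17 to 0.43, and 2 were lower and 2 higher at an unadjusted p under 0.05. Means of the neuron, T cell, B cell and red cell lists stayed between 3.27 and 5.08 in all mice. Limma called 0 of their 18 measured genes, with 4 higher at an unadjusted p under 0.05, against 22.6% of all genes in either direction. Of these 4, 3 were among the 6 measured T cell genes, whose median difference was 0.39. The means were 4.19 to 6.90 for natural killer cell markers and 4.28 to 5.96 for neutrophil markers. They were 5.27 to 6.62 for endothelium and pericyte and 6.60 to 8.39 for oligodendrocyte markers. Of the 26 genes of these lists 0 were called, with 1 lower and 5 higher at an unadjusted p under 0.05. Pooled, that is near 22.6%, but 4 of the 5 higher were among the 6 natural killer cell genes, whose median difference was 0.42.

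Markers of glioma cells and oligodendrocyte precursors, cells that divide in these tumours, were split. Of 12 measured, 6 were lower, against 5.34% of all genes, 0 were higher and 6 did not pass. Their median difference was -1.05, with a range of -2.76 for Fabp7 to 1.16 for Cd24a. Pdgfra fell by 2.71 and the dim Sox11 by 0.86, both without overlap between groups, against 1.04% of all genes. Sox2 fell by 1.32 without passing (limma adjusted p = 0.0581), while Sox10 and Nes differed by -0.07 and 0.12. Fabp7, Pdgfra, Sox11, Sox2, Sox10 and Nes were named after their values were seen. Olig1, a transcription factor of that lineage, was 7.51, 8.47 and 9.77 in Vehicle and 5.37, 6.59 and 8.06 in BLZ945 (difference -1.95, limma adjusted p = 0.00685). Cd24a, a surface glycoprotein of immature neural cells, did not pass (1.16 ± 0.71). The mean of the list ran from 6.33 to 7.71 in Vehicle and from 5.33 to 6.51 in BLZ945. Some mice stood alike in both lists. Vehicle replicate 6 was highest in both (mitotic mean 8.00, marker mean 7.71), Vehicle replicate 1 was high in both (7.83 and 7.35), and BLZ945 replicates 5 (5.20 and 5.61) and 7 (5.43 and 5.33) were low in both. Others did not: BLZ945 replicates 1 and 6, highest in the mitotic genes, had glioma marker means of 5.70 and 5.50, below BLZ945 replicates 2, 3, 4 and 8 at 6.51, 6.09, 6.49 and 6.34. Vehicle replicate 4, second highest in the mitotic genes, had 6.34, and Vehicle replicate 5 had 7.29 with a mitotic mean of 6.94. With the marker mean as a covariate the median member difference was -1.36, against -1.47 without it, and the median standard error rose from 0.279 to 0.401. In that fit limma called 4 members lower, Aurkb, Birc5, Bub1 and Cdca3, against 0.694% of all genes. The covariate averages all 12 markers, including the 6 that did not pass. What part glioma cells had in the fall of the mitotic genes was not tested. The mean of the astrocyte markers was also lower, at 5.89 to 6.57 in Vehicle and 5.10 to 5.94 in BLZ945. The median difference of that list was only -0.12. All 7 differences were negative and 2 passed, Aldoc (-1.58) and Gja1 (4.01-fold lower), the latter named after its value was seen, while Slc1a3 differed by -0.04. The part of the astrocyte markers in the fall of the mitotic genes was not tested.

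**Figure D5:**
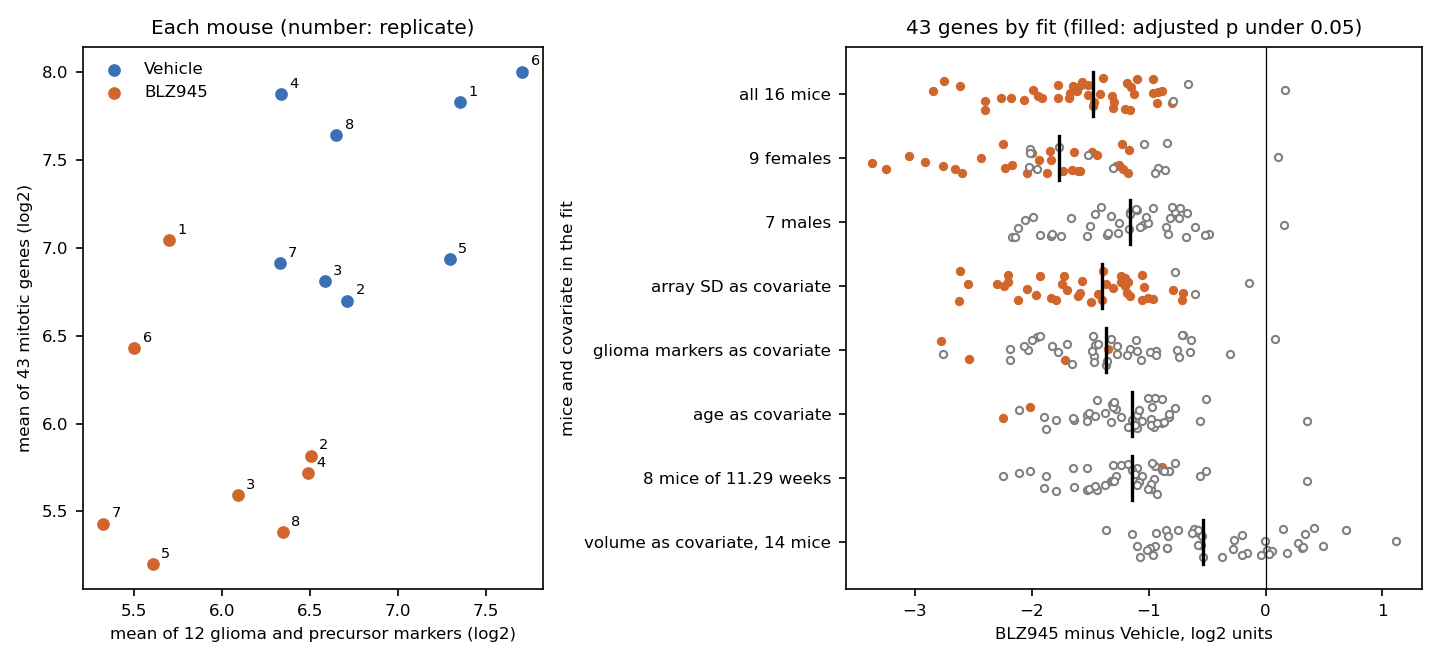
Left, mean log2 level of the 43 mitotic genes against the mean of 12 glioma and oligodendrocyte precursor markers, 1 numbered point per mouse. Vehicle replicates 1 and 6 are high in both means, BLZ945 replicates 5 and 7 low in both, and BLZ945 replicates 1 and 6 are high in the mitotic mean for their group and low in the marker mean. Right, the 43 differences between agents (log2 units) in 8 fits, with filled points at an adjusted p under 0.05 and bars at the median, which lies between -1.77 in females and -0.53 with volume as a covariate.

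The SD of the values of an array was 2.30 to 2.49 in Vehicle and 2.22 to 2.43 in BLZ945. With that SD as a covariate 40 members were lower, against 6.28% of all genes. Other ways of reading the same arrays moved the count of lower members little. It was 38 with the mean of all probe sets of a gene (4.87% of genes), 40 with quantile normalization repeated (5.53%) and 39 with each array centred on its median (4.55%). It was 41 with eBayes trend and robust settings (5.33%), with array weights (6.41%) and with sex as a covariate (5.51%). With dim genes left out, 33 of 34 members were lower, against 8.49% of the genes then tested.

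Whether the fall was alike in both sexes was asked with an interaction term. In limma 0 members and 0 genes of 12394 (0.0%) passed. At an unadjusted p under 0.05 there were 2 members, Kif22 and Ncaph, against 3.34% of all genes. The difference between agents was less negative in males for 41 of 43 members, with a median interaction of 0.51 and a median standard error of 0.57. That median ran from 0.26 without BLZ945 replicate 6 to 0.88 without BLZ945 replicate 1. Within 4 Vehicle and 5 BLZ945 females 30 members were lower, against 2.19% of genes, with a median difference of -1.77. Within 4 Vehicle and 3 BLZ945 males 0 were called, against 0.0161%, with a median of -1.16, and 37 members had an unadjusted p under 0.05, against 9.92% of genes.

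Age was not balanced between the agents, and 11.29 weeks was the only age held by both. At that age the mean of the members was 7.88, 6.94, 8.00 and 6.91 in Vehicle replicates 4 to 7 and 7.04, 5.82, 5.59 and 6.43 in BLZ945 replicates 1, 2, 3 and 6. BLZ945 replicate 1 lay above 2 of these Vehicle mice. In these 8 mice 42 of 43 differences were negative, with a median of -1.14. Limma called 1 member, Incenp (-0.89, adjusted p = 0.0456), against 0.629% of all genes, and 37 had an unadjusted p under 0.05, against 15.2%. With age as a factor over all 16 mice, the difference between agents still rests on those 8 mice. The differences and their median of -1.14 are therefore the same by design, and only the error estimate draws on the other mice. Bub1, Incenp and Nuf2 were lower in that fit, against 1.43% of genes.

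Within the BLZ945 group the 4 mice of 13.14 weeks had lower values than the 4 of 11.29 weeks for 40 of 43 members, with a median difference of -0.75. Their member means were 5.72, 5.20, 5.43 and 5.38, all below those of younger BLZ945 replicates 1, 2 and 6, and 3 of them below that of younger replicate 3 too. The differences ran from -2.24 ± 0.55 for Mki67 to 0.49 ± 0.19 for Foxm1. In limma 0 members passed, and 5 genes of all did (0.0403%). At an unadjusted p under 0.05 there were 28 members, against 18.7% of genes, with the smallest p for Smc4 (-1.35, adjusted p = 0.0944). Without BLZ945 replicate 1 the median difference was -0.49 and 18 members had an unadjusted p under 0.05, against 29.2% of genes, and without BLZ945 replicate 5 there were 17 such members, against 11.7%. Without BLZ945 replicate 3, Smc4 passed, with an adjusted p of 0.0318. With the eBayes trend and robust settings 0 members passed for sex, age or volume, and of all genes 0.0565% passed for age.

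The labelled volumes of the groups do not overlap, so volume and agent cannot be told apart. With log2 volume as a covariate in the 14 mice that carry one, the median member difference was -0.53, with 30 differences below 0 and 13 above. The median standard error of the members rose to 0.62, against 0.28 in the fit of all mice without a covariate. Limma called 0 members in that fit, against 0.0888% of all genes, and 2 of 43 had an unadjusted p under 0.05, against 32.9% of all genes. Within the BLZ945 group all 43 slopes on log2 volume were negative, with a median of -0.71 per doubling of volume and a range of -1.48 for Ube2c to -0.04 for Ncaph. In limma 0 members and 0 genes (0.0%) passed, and 21 members had an unadjusted p under 0.05, against 6.83% of genes. These slopes rested largely on BLZ945 replicate 1: without it the median slope was -0.32, 36 slopes were negative and 7 positive, and 2 members had an unadjusted p under 0.05, against 3.61% of genes. The 4 older BLZ945 mice had volumes of 48.65, 69.65, 99.4 and 132.3 and the 4 younger 41.3, 101.5, 70.35 and 62.3. BLZ945 replicate 1, with the highest mitotic mean, had the smallest volume of its group.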

How the data were processed

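Macrophages were sorted from gliomas of 16 mice and 75 ng of RNA per mouse was labelled with a 3' IVT kit, per the labels' protocols. The deposited values are the authors' log2 expression, 1 per probe set and array. GCOS 1.4 and RMA are named in the submitters' processing notes. RMA corrects background, normalizes between arrays and compresses differences of dim probe sets. How each was set, and which annotation and build the authors used, is not given in the sources used here. Background calls per probe set were not made. The number of arrays sets the precision.

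Of 22690 probe sets, 20393 carried 1 symbol, 691 several and 1606 none, and 20364 of the first were found by gene identifier in RefSeq, with 0 symbols changed. Groups came from the labelled agent. No pair of arrays correlated above 0.991, so each counted as 1 replicate. The agents were compared with limma (version 3.58.1, R 4.3.3; lmFit and eBayes without covariates), with Benjamini-Hochberg adjustment over 12394 genes and a threshold of 0.05. The calculation was tested on simulated data. Further fits used the interaction with sex, and age or log2 volume within BLZ945. Adjusted p-values are limma's throughout.

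The members and all lists were chosen with earlier results of these data known. Values of both groups are given for the largest and smallest difference of each role, members that did not pass and the 5 smallest p. Of each further list, the 2 smallest p per direction are named, and of markers the 2 brightest. Promoter windows and sequences are RefSeq's (GRCm38.p6). Windows were not listed for Aurkb, Ccna2, Foxm1, Incenp, Kif20a, Smc4, Stmn1 and Tpx2. Protein sequences were not used here.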

Additional observations from a re-analysis of the deposited data

Results flagged for a closer look

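Among 86 sets of 8 values, a member in one group, 3 had a mouse farther from the rest than Dixon's limit, and chance gives about 1 in 20. Aurka in BLZ945 replicate 1 was 7.43, where the next mouse of the group was at 6.04. Hmmr in BLZ945 replicate 1 was 7.11, with the next mouse at 5.86. Kif2c in Vehicle replicate 2 was 7.06, below the next mouse at 7.87.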

How the results depend on the processing

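The count of members lower in BLZ945, 40, stayed at 38 to 41 under the normalizations, probe set means, eBayes settings, array weights, sex and array SD, and at 28 to 33 with fewer genes or mice (34 members tested, or females alone). It was 3 with age as a covariate, 4 with the glioma marker mean, 0 with volume, 1 in mice of 11.29 weeks and 0 in males. All genes called fell from 984 to 215 with age, 172 with the glioma marker mean, 15 with volume, 89 in mice of 11.29 weeks, 393 in females and 2 in males, and rose to 1644 with the array SD. The share of calls that were lower, 67.3%, was 58.4% with quantile normalization, 56.5% with centring, 47.3% with the array SD, 50.0% with the glioma marker mean, 82.3% with age and 87.6% in mice of 11.29 weeks. Leaving out 1 mouse gave 38 to 42 members, 38 of them called each time, and 710 to 1188 genes. Cks2 passed without Vehicle replicate 2 or 3 or BLZ945 replicate 1 or 6, and Cenpa without Vehicle replicate 2 or 3 or BLZ945 replicate 1. The age comparison gave 0 to 1 members, and the sex and volume comparisons 0 in every such fit. With volume as a covariate differences turned to 0.18 for Cks2, 0.32 for Plk1, 0.15 for Aurka, 0.28 for Bub1b, 0.010 for Cdc20, 0.69 for Ube2c, 0.32 for Pttg1, 0.059 for Kif11, 0.42 for Kif23, 0.026 for Kif4, 0.33 for Prc1, 0.49 for Hmmr, 0.22 for Cdkn2c, -0.42 for Gadd45a and -0.20 for Btg1. In that volume fit the median standard error of the members was 0.62, against 0.28 in the main fit. Without suffixed probe sets the differences were 0.27 for Pttg1, 0.22 for Cdca3 and 0.24 for Top2a. Foxm1 turned to -0.063 with the mean of probe sets and -0.14 with the array SD. The causes were not tested. Same-numbered mice had correlations of -0.481 to 0.394 and 1 of 8 matched its own number best, so the numbers do not pair them. A replicate block gave 41 members and 873 genes.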
